A study of Mus musculus with 12 samples.

Results

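The epithelial-mesenchymal switch genes are 10 genes that mark or control the choice between an epithelial sheet and loose mesenchymal cells: the repressors Zeb1, Zeb2 and Snai1, the mesenchymal genes Vim and Cdh2, and the epithelial genes Cdh1, Epcam, Cldn4, Cldn6 and Cldn7. They were taken by symbol from the 18412 genes measured, and all 10 are present in each of the 4 deposited tables. They were chosen on results of the same knockout and wild-type comparison, so their differences are described and not tested as evidence. Polyadenylated RNA was sequenced with strand-specific libraries from mouse embryonic stem cells (ESCs) in 4 groups of 3 libraries. The Dicer1-/- line, which lacks the enzyme that cuts microRNA precursors, was set against the wild-type line TFC. The Dgcr8-/- line, which lacks the RNA-binding protein that works with Drosha to cut primary microRNA transcripts, was set against the wild-type line V6.5. All 4 lines were cultured on gelatin, with serum and leukaemia inhibitory factor in the medium. Each group is 1 line and the labels name no deleted exon, clone or separate culture, so loss of the enzyme and other differences between 2 lines cannot be told apart.

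In epithelial cells, E-cadherin (Cdh1), Epcam and the claudins hold neighbouring cells together. Zeb1, Zeb2 and Snai1 bind E-box sequences near such genes and repress them, and cells that follow this route gain vimentin (Vim) and N-cadherin (Cdh2). MicroRNAs of the miR-200 family in turn repress Zeb1 and Zeb2, and the Zeb proteins repress the miR-200 genes, so each side of the loop holds the other down. ESCs grow as compact colonies joined by E-cadherin, and both Dgcr8 and Dicer are needed to make microRNAs of the miR-200 kind. The microRNAs themselves were not measured in these libraries.

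The sequences of that loop are shown so that the genes below can be read beside the letters they carry. The 5 mouse miR-200 microRNAs fall into 2 seed groups. Capitals mark the seed (bases 2 to 8), and the sequences are those of RefSeq (GRCm38.p6).
miR-200b-3p: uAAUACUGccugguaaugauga
miR-200c-3p: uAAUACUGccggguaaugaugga
miR-429-3p: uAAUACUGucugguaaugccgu
miR-200a-3p: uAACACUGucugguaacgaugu
miR-141-3p: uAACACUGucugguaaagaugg
The first 3 share 1 seed and the last 2 share the other, and the groups differ at 1 base of the seed. A 7-base match to the seeds reads CAGTATT and CAGTGTT in the message.

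Zeb2 had 9 such matches in its annotated 3′ UTR of 4941 bases, 5 of CAGTATT and 4 of CAGTGTT. Its first 4, counted from the stop codon, are printed in 29-base windows (GENCODE annotation of GRCm38, minus strand) with the match in capitals.
chr2:44988347-44988375: aaaattttgtaCAGTGTTaaggcctaaaa
chr2:44988163-44988191: ctaccatacatCAGTATTttattattatt
chr2:44988098-44988126: ctacagtgcatCAGTATTacgattcctca
chr2:44987815-44987843: ccatccttgtaCAGTGTTcagagggtaac
Zeb1 also had 9, 5 of CAGTATT and 4 of CAGTGTT, in a UTR of 2401 bases. Of 17632 measured genes with a 3′ UTR, 3 (0.017%) had as many, and the third, D10Wsu102e, has a UTR of 122583 bases. Either match occurred in 26.6% of the genes. Snai1 had 1 CAGTATT and Cldn6 had 1 CAGTGTT, while Vim, Cdh1, Cdh2, Epcam, Cldn4 and Cldn7 had neither. Vim had 1 AGCACTT, the match to miR-294 and miR-302b of the main ESC families, which 15.3% of the genes hold. A match describes the letters only.

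Of the 10 genes, 7 had a promoter window in the RefSeq reference used (GRCm38.p6, 250 bases before to 50 after a start site). That reference held no window for Zeb1, Cdh1 and Cdh2, so their promoters were not searched. The E-box CACCTG or its reverse complement CAGGTG lay in a window of Snai1, Cldn4, Cldn6, Cldn7 and Epcam, 5 of these 7, and not in the windows of Vim and Zeb2. Of all 14124 measured genes with a window, 22.7% held it, and 20.2% of all 32851 windows in the reference did. Of the 7 genes, 4 (57.1%) held 2 copies in 1 window, against 3.41% of genes. The copies before the start site are printed in 30-base windows on the gene's strand, E-box in capitals, because Zeb and Snail proteins bind this sequence.
Epcam, chr17:87635780-87635809: gccagtagggccCACCTGctggaggaccgg
Epcam, chr17:87635948-87635977: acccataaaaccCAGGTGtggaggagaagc
Cldn4, chr5:134946931-134946960: ctttaactgcagCACCTGtggccgcccttt
Cldn6, chr17:23679260-23679289: gggaaacgcacgCAGGTGgctatcgccgca
Cldn7, chr11:69965312-69965341: tttcttcctcttCACCTGgacgaggagggg
Cldn7, chr11:69965352-69965381: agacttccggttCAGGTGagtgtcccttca
Snai1, chr2:167538057-167538086: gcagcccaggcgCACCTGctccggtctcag
In Epcam they lie 187 and 19 bases before the start site, in Cldn4 14, in Cldn6 93, in Cldn7 97 and 57, and in Snai1 126. Both Cldn7 copies belong to a start site at 69965421, inside the gene. The window of the other Cldn7 start site, 69964779 at the start of the annotated gene, held 0. For Cldn6 the start site used is 23679365, and the printed copy lies inside the annotated gene, which begins at 23679249. Counting only bases before the start leaves the same 5 of 7, against 19.7% of genes.

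The deposited tables give group means of normalised reads, that is reads divided by a scaling factor per library. The values of single libraries were solved from these means, which are printed in full, and are lettered A, B and C because they carry no replicate number. All 10 genes had 1 solution in every column. Exonic and intronic columns were solved separately. Intronic libraries were given letters by the best joint match of their deviations to those of the exonic libraries. These matches were weak (r = 0.305 to 0.419 for A and 0.094 to 0.281 for B and C). Exonic library B of Dgcr8-/- matched another intronic library as closely (0.164 against 0.166). The intronic letters B and C are therefore uncertain. Libraries held 5889725 to 33072115 exonic reads and 559057 to 5627798 intronic reads. Library A of each group is by definition the one least like the other 2 in exons. Across exonic genes its deviation was shared between knockout and wild type (r = 0.555 in the Dicer pair and 0.610 in the Dgcr8 pair, n = 13232 and 12769 genes, which are not independent replicates). Each difference is therefore also given within the A libraries and within B and C. The targeted genes stood at 1334 to 1763 exonic reads in Dicer1-/- against 2944 to 3496 in TFC for Dicer1, and at 342 to 1114 in Dgcr8-/- against 1930 to 2947 in V6.5 for Dgcr8. The stem cell markers Pou5f1, Nanog and Sox2 were present in all 12 libraries, lowest for Sox2 in V6.5 (2615 to 14128).

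Log2 differences are knockout minus wild type, with 1 added to each value, from a limma fit over all genes with a mean of at least 10. In exons, 1.2% of 13232 genes passed an adjusted p of 0.05 in the Dicer pair and 1.26% of 12769 in the Dgcr8 pair. Of the 10 genes, 0 passed in the Dicer pair (4 at an unadjusted p under 0.05 with limma, all higher in the knockout, and 0 adjusted with voom weights) and 2, Zeb1 and Cldn6, in the Dgcr8 pair. Knockout and wild-type libraries did not overlap for 3 of the 10 genes in the Dicer pair (Zeb1, Vim and Cdh2, all higher), where 21.3% of all genes did not overlap. In the Dgcr8 pair they did not overlap for 5 (Zeb1, Vim and Epcam higher, Cdh1 and Cldn6 lower), where 22.5% of all genes did not. Without library B or C of either Dgcr8 group, 0 of all genes passed with limma (1271 to 1500 at an unadjusted p under 0.05), Zeb1 and Cldn6 included. As the genes were chosen from these contrasts, nothing is read from these counts.

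**Figure D1:**
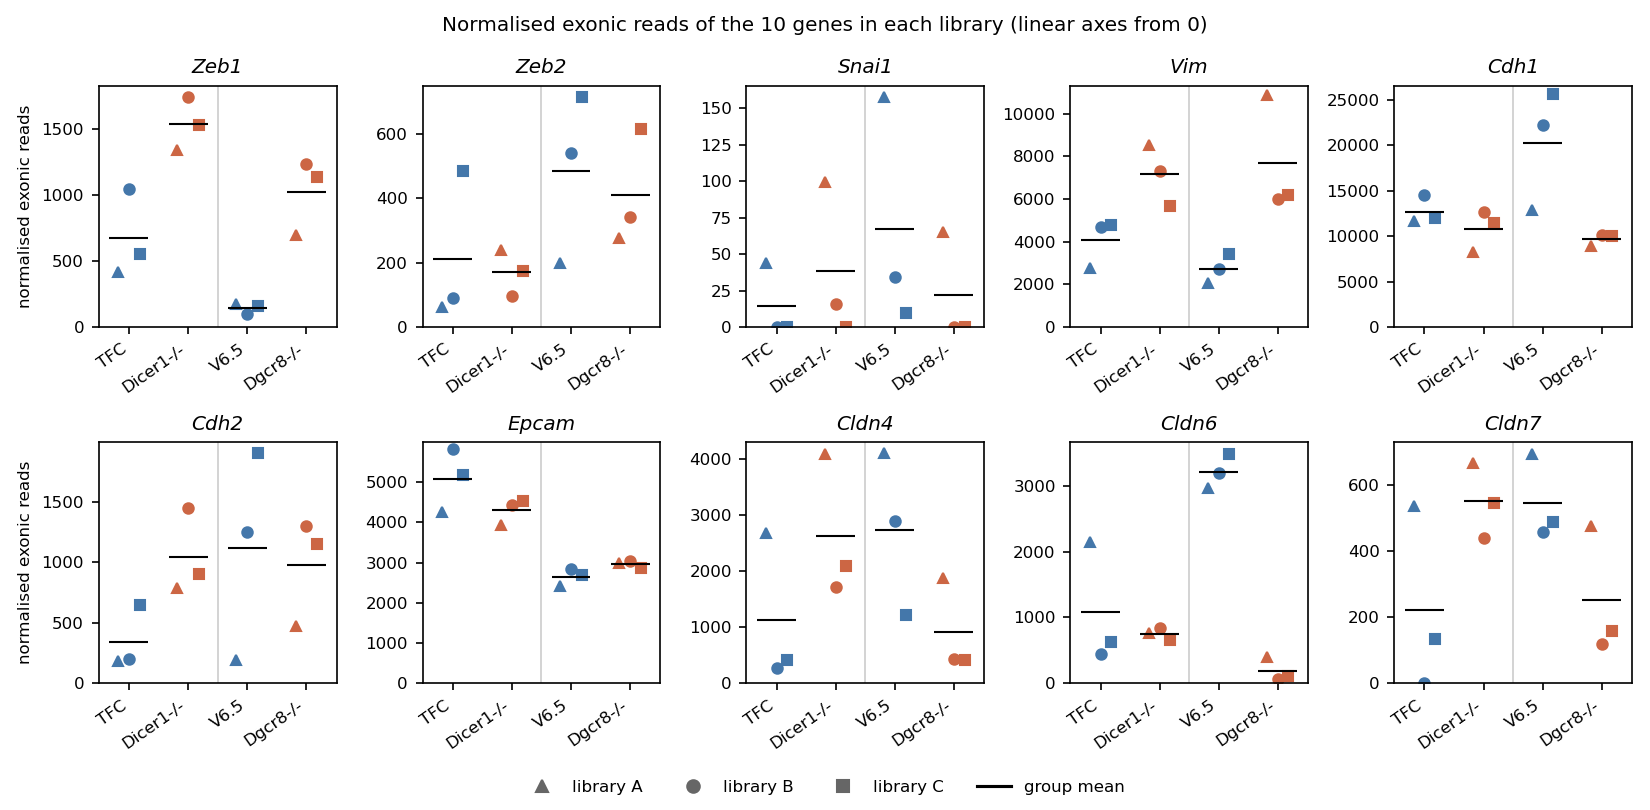
Normalised exonic reads (linear vertical axes from 0) of the 10 genes in each library of TFC, Dicer1-/-, V6.5 and Dgcr8-/- (triangles, circles and squares for libraries A, B and C; line, group mean). The Zeb1 and Vim points of each knockout lie above all points of its wild type, and the Cldn6 points of Dgcr8-/- (62.1 to 391) lie far below those of V6.5 (2961 to 3491); the Dicer and Dgcr8 tables were scaled separately.

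Zeb1 (chromosome 18, 5591860 to 5775467, plus strand, GRCm38), the zinc-finger repressor with the miR-200 matches above, was higher in both knockouts. It stood at 1344, 1745 and 1529 normalised exonic reads in libraries A, B and C of Dicer1-/-, and at 414, 1049 and 552 in TFC. Every Dicer1-/- library lay above every TFC library, and the ratio of the means was 2.29 (log2 difference 1.30, SE 0.37; 1.70 within A and 1.10 within B and C). In Dgcr8-/- it stood at 694, 1233 and 1138 reads, against 173, 96.2 and 163 in V6.5. The groups were again apart, with a ratio of 7.11 (log2 difference 2.82, SE 0.41; 2.0 within A and 3.23 within B and C). The larger ratio in the Dgcr8 pair goes with a lower wild-type level: per kilobase of exon, Zeb1 had 116 reads in TFC and 24.8 in V6.5, and 265 and 176 in the Dicer1-/- and Dgcr8-/- lines, from tables that were scaled separately.

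Zeb2 (chromosome 2, 44983632 to 45117395, minus strand), the paralogue of Zeb1 with as many miR-200 matches, had overlapping knockout and wild-type libraries in both pairs. It had 241, 97.7 and 175 normalised exonic reads in Dicer1-/- and 62.1, 90.04 and 486 in TFC, a spread between wild-type libraries that covers all 3 knockout values. In Dgcr8-/- it had 278, 342 and 615 reads, against 198, 543 and 717 in V6.5. The log2 differences were 0.20 (SE 0.91) and -0.13 (SE 0.56), each with opposite signs within A (1.94 and 0.49) and within B and C (-0.68 and -0.44). Measured per kilobase of exon, Zeb1 exceeded Zeb2 by 8.99 to 28.8 times in Dicer1-/- libraries and 1.83 to 18.8 times in TFC, by 2.98 to 5.81 times in Dgcr8-/-, and by 0.286 to 1.41 times in V6.5. Thus in V6.5 libraries B and C Zeb2 was the more abundant of the pair, and in the other 10 libraries Zeb1 was.

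**Figure D2:**
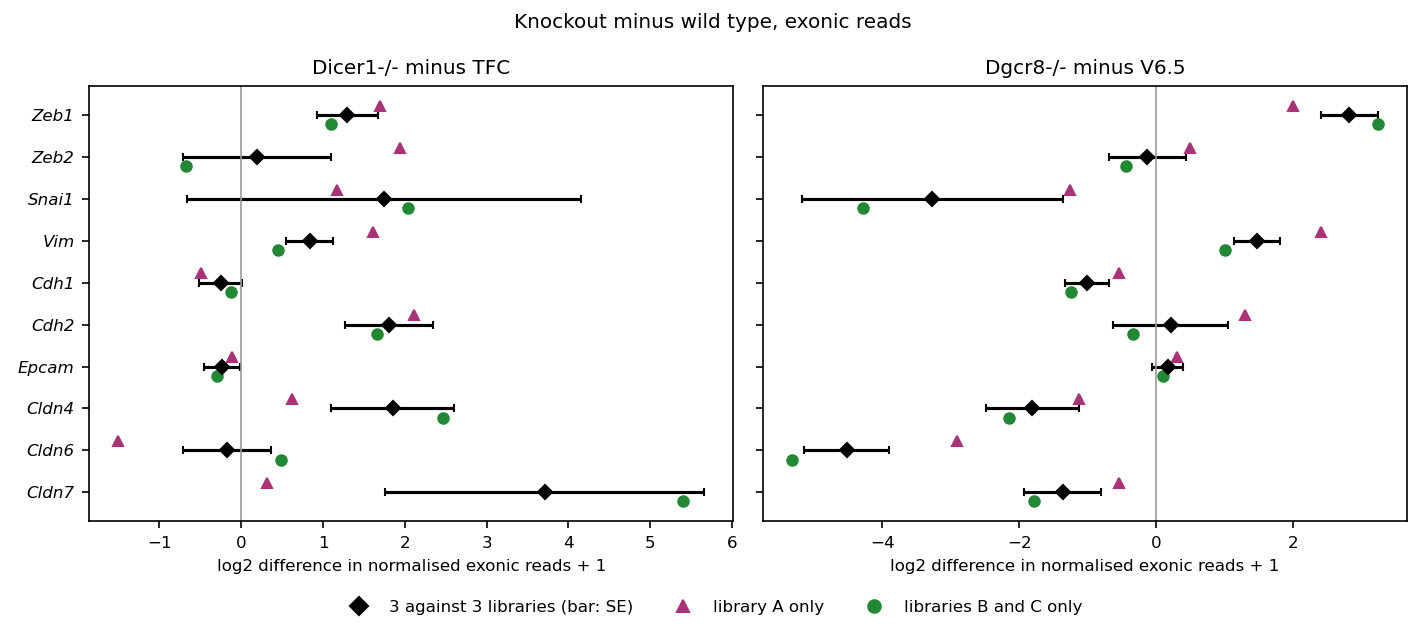
Knockout minus wild-type log2 differences in exonic reads + 1 (horizontal axis) of the 10 genes in the Dicer pair and the Dgcr8 pair, over all libraries (diamonds, bars SE), within libraries A (triangles) and within B and C (circles). Zeb1 and Vim lie right of 0 at every marker in both panels, and the markers of Zeb2 fall on both sides of 0.

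Snai1 (chromosome 2, 167538195 to 167542814, plus strand), the Snail repressor that acts early in epithelial-mesenchymal transition, was near the limit of detection. It had 99.7, 15.9 and 0 normalised exonic reads in Dicer1-/- and 43.9, 0 and 0 in TFC, then 65.1, 0 and 0 in Dgcr8-/- and 157, 34.5 and 9.56 in V6.5. Library A was the highest of its group in all 4 groups, and 5 of the 12 libraries had no read. Knockouts and wild types overlapped in both pairs, and the fitted log2 differences of 1.75 (SE 2.41) and -3.27 (SE 1.90) rest on libraries at 0.

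Vimentin (chromosome 2, 13573927 to 13582826, plus strand), the intermediate filament of mesenchymal cells that ESCs also make, was higher in both knockouts. Vim stood at 8530.3, 7311 and 5678 normalised exonic reads in Dicer1-/- and at 2783, 4697 and 4759 in TFC. The lowest knockout library lay above the highest wild-type one, and the log2 difference was 0.84 (SE 0.29), 1.62 within A but 0.45 within B and C. In Dgcr8-/- it stood at 10851, 5975 and 6206 reads, against 2052, 2701 and 3416 in V6.5, again without overlap. There the log2 difference was 1.47 (SE 0.33), 2.40 within A and 1.003 within B and C. Library A held the highest Vim value of each knockout and the lowest of each wild type, so the difference was larger within A than within B and C in both pairs and had the same direction.

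N-cadherin (chromosome 18, 16588877 to 16809246, minus strand), the cadherin of neural and mesenchymal cells, separated the libraries of the Dicer pair and not those of the Dgcr8 pair. Cdh2 had 792, 1449 and 903 normalised exonic reads in Dicer1-/- and 183, 200.1 and 649 in TFC. The groups did not overlap, and the ratio of the means was 3.05 (log2 difference 1.81, SE 0.54; 2.11 within A and 1.66 within B and C). In Dgcr8-/- it had 476, 1303 and 1154 reads, and in V6.5 193, 1254 and 1909.5. These overlapped throughout, and the log2 difference of 0.21 (SE 0.84) changed sign between A (1.30) and B and C (-0.34). Whether the Cdh2 differences of the 2 pairs themselves differ was not tested: they were 1.60 apart, with a combined SE of 0.99.

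E-cadherin (chromosome 8, 106603351 to 106670246, plus strand), the adhesion molecule of epithelia and of ESC colonies, remained abundant in every line. Cdh1 had 8259, 12655 and 11489 normalised exonic reads in Dicer1-/- and 11648, 14514 and 11952 in TFC. These overlapped, with a log2 difference of -0.25 (SE 0.26). In Dgcr8-/- it had 8890.3, 10105 and 10014 reads, against 12922, 22210 and 25662 in V6.5, and every knockout library lay below every wild-type one. The ratio of V6.5 to Dgcr8-/- means was 2.10, and the log2 difference -1.01 (SE 0.33) was smaller within A (-0.54) than within B and C (-1.25). The 2 knockouts sat close together per kilobase of exon (2437 and 2182 reads) and the wild types further apart (2867 in TFC and 4572 in V6.5), from separately scaled tables.

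Epcam (chromosome 17, 87635979 to 87651129, plus strand), the epithelial cell adhesion molecule that marks undifferentiated ESCs, had the smallest standard error of the 10 genes in both pairs. It had 3929, 4419.8 and 4540.2 normalised exonic reads in Dicer1-/- and 4258, 5820.3 and 5181 in TFC, a log2 difference of -0.23 (SE 0.22) with overlapping libraries. In Dgcr8-/- it had 2979, 3035 and 2873 reads, all just above the 2410, 2837 and 2690.5 of V6.5. That log2 difference was 0.17 (SE 0.23), 0.31 within A and 0.10 within B and C. The ratio of the means was 0.845 in the Dicer pair and 1.12 in the Dgcr8 pair.

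Claudins form the seal of the tight junction, and the 3 of the 10 genes differed by 3.66 to 5.08 on the log2 scale between the 2 pairs. Cldn6 (chromosome 17, 23679249 to 23682446, plus strand), a claudin of early embryonic epithelia and stem cells, had 391, 62.1 and 110.3 normalised exonic reads in Dgcr8-/- and 2961, 3198 and 3491 in V6.5. The V6.5 libraries were close to each other and 17.1 times the knockout mean (log2 difference -4.52, SE 0.62; -2.92 within A and -5.32 within B and C). In Dicer1-/- it had 761, 834 and 661 reads, against 2154, 448 and 624 in TFC. The high TFC library is A, and without that library the sign of the difference turns: -0.17 (SE 0.54) over all 6 libraries, -1.50 within A and 0.49 within B and C.

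Cldn4 (chromosome 5, 134945119 to 134946934, minus strand), a claudin of simple epithelia, had 4091, 1713 and 2082 normalised exonic reads in Dicer1-/- and 2668, 278 and 417 in TFC. Library A was the highest in both groups, and only the A library of TFC overlapped the knockout. The log2 difference was 1.85 (SE 0.76), 0.62 within A and 2.47 within B and C. In Dgcr8-/- it had 1872.5, 427 and 414 reads, against 4101, 2889 and 1208 in V6.5. The difference was of the other sign, -1.81 (SE 0.68), -1.13 within A and -2.15 within B and C, although A of the knockout reached above C of V6.5.

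Cldn7 (chromosome 11, 69964779 to 69967885, plus strand), which accompanies Epcam at lateral membranes, had 666, 438 and 544 normalised exonic reads in Dicer1-/- and 535, 0 and 132 in TFC, a ratio of means of 2.47. The log2 difference of 3.71 (SE 1.95) rests on the TFC library at 0 and was 0.32 within A. In Dgcr8-/- it had 476, 118 and 158 reads, against 693, 455 and 488 in V6.5, overlapping only through library A of the knockout. There the log2 difference was -1.37 (SE 0.56), -0.54 within A and -1.78 within B and C. Cldn4 and Cldn7 thus stood higher without Dicer1 and lower without Dgcr8 on both sides of the library split. The Dicer minus Dgcr8 differences were 3.66 (combined SE 1.02) for Cldn4 and 5.08 (2.03) for Cldn7, given as a description since the pairs were seen before the genes were chosen.

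Libraries A carried their own pattern over the 10 genes. Snai1, Cldn4 and Cldn7 were highest in A in 4 of 4 groups, by 3.03 to 6.05, 1.11 to 2.97 and 0.45 to 5.54 on the log2 scale over the mean of B and C. Cdh1 and Cdh2 were lowest in A in 4 of 4 groups, by -0.89 to -0.18 and -3.00 to -0.53. Zeb1, Zeb2 and Epcam were lowest in A in 3 of 4. In TFC the Cldn4 gap between A and the other libraries, 2.97, was wider than its difference between knockout and wild type, 1.85. What sets libraries A apart was not tested, and the labels name no batch.

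**Figure D3:**
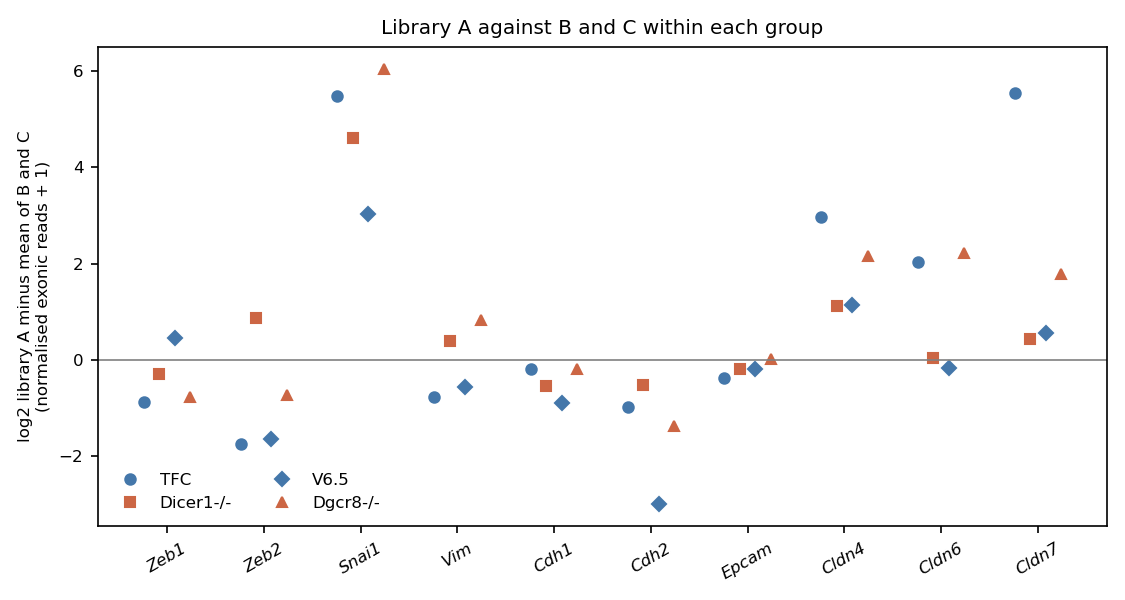
Log2 exonic reads + 1 of library A minus the mean of libraries B and C (vertical axis) for each of the 10 genes in TFC, Dicer1-/-, V6.5 and Dgcr8-/-. Snai1, Cldn4 and Cldn7 lie above 0 in all 4 groups and Cdh1 and Cdh2 below 0 in all 4.

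Intronic reads come mostly from unspliced transcripts and so follow transcription more closely than exonic reads. In introns 7 of the 10 genes reached a mean of 10, while Snai1 and Cldn7 did not and Cldn4 has no intron. There 0.353% of 11626 genes passed in the Dicer pair, with 0 of these 7 (0 at an unadjusted p under 0.05 with limma, and 0 adjusted with voom weights), and 1.53% of 10749 in the Dgcr8 pair, with 1 of 7, Cldn6. Cldn6 introns had 3.41, 0 and 13.9 normalised reads in Dgcr8-/- and 97.7, 104 and 152 in V6.5, a log2 difference of -4.85 (SE 1.06) beside -4.52 in exons. Cdh1 introns had 84.5, 70.5 and 27.2 reads against 136, 217 and 122, a difference of -1.47 (SE 0.52) beside -1.01 in exons. Both genes thus stood lower in exons and introns alike, with no overlap in either.

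Zeb1 introns stood apart in the Dgcr8 pair and overlapped in the Dicer pair. In the Dgcr8 pair its introns had 93.9, 60.8 and 81.1 normalised reads against 29.6, 15.5 and 12.5 in V6.5, without overlap, a log2 difference of 2.05 (SE 0.70) beside 2.82 in exons. In the Dicer pair they had 169, 67.0 and 154 reads against 101, 168 and 151 in TFC, overlapping, with a difference of -0.18 (SE 0.60) beside 1.30 in exons. Exonic minus intronic difference was therefore 1.48 (combined SE 0.70) in the Dicer pair, a value that 10% of 11047 genes reached, and 0.77 (combined SE 0.81) in the Dgcr8 pair, reached by 17.1% of 10382. For Vim it was 0.33 (combined SE 0.77) and 0.79 (0.60), and for Cdh2 0.998 (2.42) and 1.48 (1.42). Cdh2 introns had 0 reads in the library lettered B of both Dicer groups, a letter that is uncertain in introns. Zeb1 and Zeb2 each overlap a gene on the opposite strand in exons, and whether the counting used strand was not given in the sources used here.

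**Figure D4:**
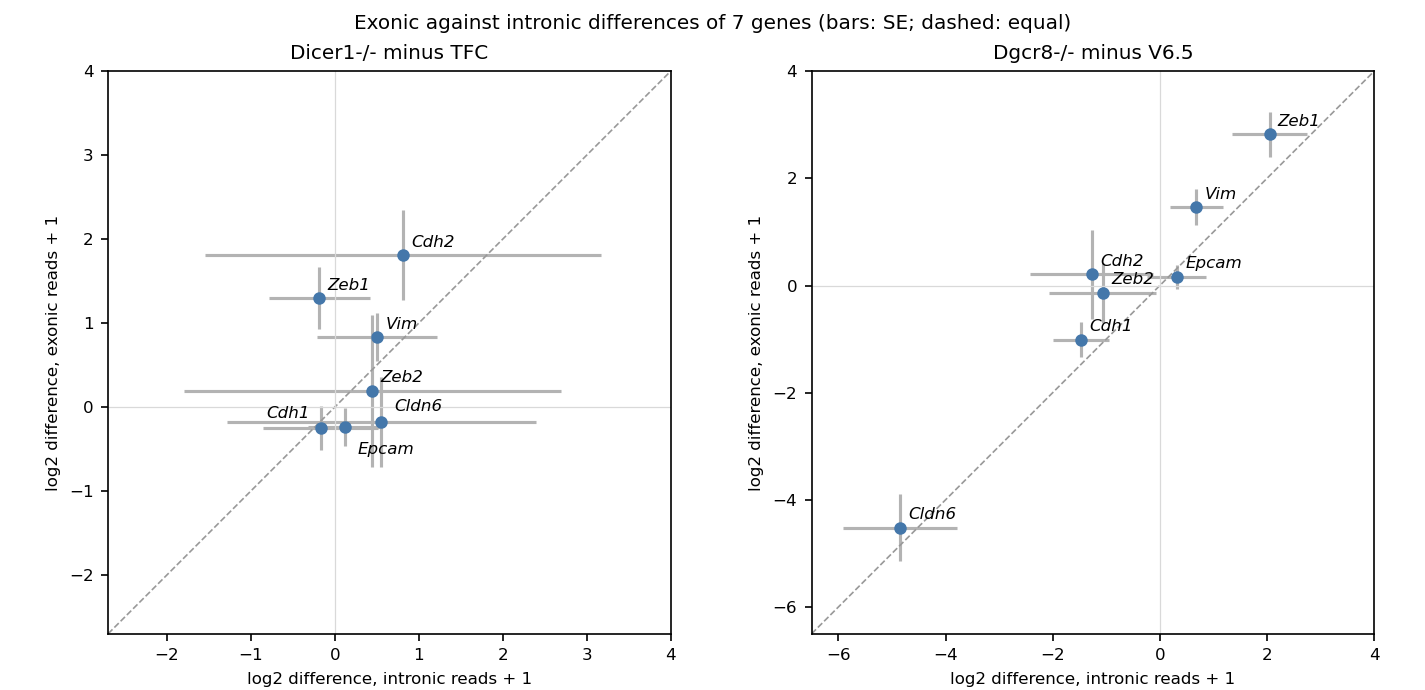
Exonic (vertical) against intronic (horizontal) log2 differences, knockout minus wild type, of the 7 genes measured in both, with SE bars and a dashed line of equality; the 2 panels have different scales. In the Dicer panel Zeb1 lies above the line with introns near 0 (-0.18), and in the Dgcr8 panel Zeb1 and Cldn6 lie near the line at opposite ends.

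Set against each other within a library, the epithelial and mesenchymal genes gave ratios that do not depend on the scaling. Per kilobase of exon, Cdh1 exceeded Zeb1 by 8.05 to 9.85 times in Dicer1-/- and by 18.1 to 36.9 times in TFC. In Dgcr8-/- it exceeded Zeb1 by 10.7 to 16.8 times, and in V6.5 by 98.0 to 303 times. The knockout libraries lay below the wild-type libraries in both pairs, and the knockout ranges nearly met. The Vim to Cdh1 ratio was 1.19 to 2.50 in Dicer1-/- against 0.578 to 0.962 in TFC, and 1.43 to 2.95 in Dgcr8-/- against 0.294 to 0.384 in V6.5. Vimentin message thus exceeded E-cadherin message per kilobase in each of the 6 knockout libraries and in no wild-type library. Cdh1 still exceeded Cdh2 everywhere, by 9.54 to 13.9 times in Dicer1-/-, 20.1 to 79.3 in TFC, 8.48 to 20.4 in Dgcr8-/- and 14.7 to 73.2 in V6.5.

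Ordered by exonic reads per kilobase, Cdh1 (2867), Epcam (2468) and Vim (2225) led in TFC, ahead of Cldn6 (714), Cldn4 (619), Cldn7 (153), Zeb1 (116), Cdh2 (71.0), Zeb2 (22.7) and Snai1 (9.04). In Dicer1-/- Vim led with 3911, followed by Cdh1 (2437), Epcam (2085) and Cldn4 (1451). In V6.5 Cdh1 (4572) and Cldn6 (2136) led, before Cldn4 (1509), Vim (1485) and Epcam (1284), and in Dgcr8-/- Vim (4186) led again, then Cdh1 (2182) and Epcam (1437). Cldn6 was the second of the 10 genes in V6.5 and the eighth in Dgcr8-/- (125). Many neighbours in these orders overlapped from library to library, such as Cdh2 and Zeb1 in both knockouts and Cldn6 and Cldn4 in TFC.

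The medians of 2 wider epithelial lists pointed in different directions in the 2 pairs. Of 28 genes of junctions and polarity, 19 stood higher in Dicer1-/- (median log2 difference 0.34) and 4 in Dgcr8-/- (median -0.61), where the median of all genes tested was -0.01 and -0.08. One passed in each: desmoplakin (Dsp), the desmosome's link to keratin, rose to 5003 from 1603 reads in Dicer1-/- (log2 difference 1.67, SE 0.26; limma adjusted p = 0.0286), and periplakin (Ppl), a keratin-binding protein, fell to 91.1 from 829 in Dgcr8-/- (-3.10, SE 0.49; limma adjusted p = 0.0361). Among epithelial regulators and surface proteases, 17 of 22 stood higher in Dicer1-/- (median 1.02) and 6 of 23 in Dgcr8-/- (median -0.55). Spint1, an inhibitor of surface proteases, rose in Dicer1-/- (2181 against 754 reads; limma adjusted p = 0.0369). It did not follow the list in Dgcr8-/-, where it was uncalled but also higher, without overlap (1678 against 1027 reads; log2 difference 0.69, SE 0.27). The simple-epithelial keratins Krt8 (314 against 5087 reads; limma adjusted p = 0.0340) and Krt18 (171 against 5209; limma adjusted p = 0.0265) fell in Dgcr8-/-. All calls of the 2 epithelial lists were lost without library B or C of either group in each pair. Libraries B and C alone, a fit added after seeing the data, called 12 junction genes and 8 regulators in the Dgcr8 pair and 1 and 0 in the Dicer pair. With voom weights 0 junction genes passed in either pair (6 and 8 unadjusted with limma in the Dicer and Dgcr8 pairs). Of the regulators 0 passed with voom weights in the Dicer pair (8 unadjusted with limma) and 1 in the Dgcr8 pair.

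The other claudins tested numbered 7 and 5, and 0 passed in either pair (0 and 1 at an unadjusted p under 0.05 with limma, and 0 adjusted with voom weights in both). Of the other classical cadherins 8 and 8 were tested and 0 passed (2 and 1 unadjusted with limma, and 0 adjusted with voom weights). Of all claudins tested, Cldn6 alone passed, in the Dgcr8 pair.

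Mesenchymal genes outside the 10 did not follow Vim as a group. Of 24 matrix and cytoskeleton genes tested in the Dicer pair 11 stood higher (median -0.07), and 2 rose: Sparc, a collagen-binding matrix protein (20894 against 4281 reads; limma adjusted p = 0.0286), and caldesmon (Cald1), an actin-binding protein (7458 against 1547; limma adjusted p = 0.0367). In the Dgcr8 pair 2 of 25 stood higher (median -1.73), and 3 fell: the smooth-muscle genes Acta2 (184 against 2681 reads) and Tagln (482 against 4025) and the collagen Col1a1 (48.0 against 1375 reads; limma adjusted p = 0.0248). Vim and the fibroblast-type genes therefore stood on opposite sides of 0 in Dgcr8-/-. Leaving out library B or C of either group left 0 calls in this list in each pair, and libraries B and C alone gave 1 in the Dicer and 20 in the Dgcr8 pair. Voom weights gave 1 in the Dicer and 2 in the Dgcr8 pair. Among other transcription factors of epithelial-mesenchymal transition, 0 of 10 passed in the Dgcr8 pair (3 at an unadjusted p under 0.05 with limma, and 0 adjusted with voom weights). Of 11 corepressors of Zeb and Snail proteins 0 passed in either pair (1 and 0 unadjusted with limma, and 0 adjusted with voom weights in both), with medians of 0.08 and 0.13. Of 16 other described miR-200 targets, Bmi1, a Polycomb protein, rose in Dicer1-/- (1317 against 250.4 reads; limma adjusted p = 0.0384). That call was lost with voom weights, without a variance trend, after centring, with libraries B and C alone, and without any 1 of the 6 libraries except A of TFC. In the Dgcr8 pair 0 of the 16 passed (3 unadjusted with limma, 0 adjusted with voom weights), and the medians of the 2 pairs were 0.03 and -0.06. Bmi1 did not pass there but stood higher without overlap, at 413, 1118 and 1189 reads in Dgcr8-/- against 168, 203 and 191 in V6.5. Its log2 difference in that pair was 2.13 (SE 0.47; limma adjusted p = 0.0772).

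**Figure D5:**
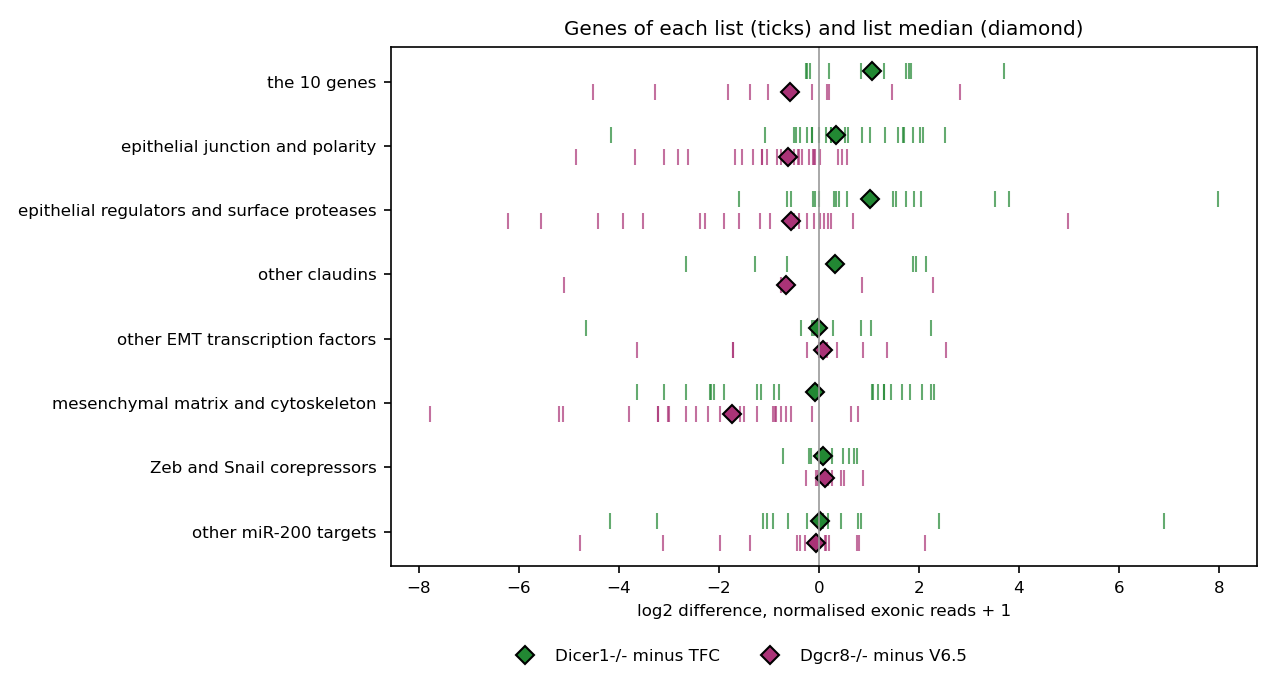
Log2 differences in exonic reads + 1, knockout minus wild type (horizontal axis), of the 10 genes and of each gene of 7 lists (ticks) with the median (diamonds) in the Dicer pair and the Dgcr8 pair. The epithelial lists have medians above 0 in the Dicer pair (0.34 and 1.02) and below 0 in the Dgcr8 pair (-0.61 and -0.55).

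Markers of several other cell types differed between Dgcr8-/- and V6.5, most lower and some higher in the knockout. The summed level of 13 fibroblast markers was 757 to 2072 normalised exonic reads in Dgcr8-/- and 6084 to 13448 in V6.5. For 12 trophectoderm markers, Krt8 and Krt18 among them, it was 2150.5 to 3575 against 10544 to 14537. For 14 primitive endoderm markers it was 3893 to 5020.5 against 8530.5 to 10273. A few genes made up much of the fibroblast, trophectoderm and endoderm sums in V6.5. Among fibroblast markers these were Tagln (mean 4025 reads), Acta2 (2681) and Col1a1 (1375). Among trophectoderm markers they were Krt18 (5209) and Krt8 (5087), given above as epithelial keratins. Among endoderm markers they were Lamb1 (4257), Col4a1 (2503) and Col4a2 (1197). Of the markers tested, 2 of 12 fibroblast, 3 of 11 trophectoderm and 4 of 11 endoderm markers stood higher in Dgcr8-/-. Streak and mesoderm markers summed to 166 to 301 reads against 411 to 4678, with T (brachyury) at 0 in all 3 Dgcr8-/- libraries, and stem cell markers to 124420 to 147350 against 44823 to 111970. Of 8 neural markers tested 6 stood higher in Dgcr8-/- (median log2 difference 2.21), and the adhesion molecule Ncam1 rose to 1134 from 161 reads (limma adjusted p = 0.0486). With voom weights 0 neural markers passed (5 unadjusted with limma). Without library B or C of either Dgcr8 group 0 of all genes passed with limma (1271 to 1500 unadjusted), Ncam1 included. The sum of 11 neural markers overlapped, 5142 to 6709.9 against 3789.5 to 8126. Of the streak markers Mesp1, and of the endoderm markers Afp, had no read in the pair, and no fibroblast or trophectoderm marker was at 0 throughout. In the Dicer pair these sums overlapped for fibroblast (738 to 1264.5 against 690.3 to 1130) and trophectoderm markers (4859 to 7045 against 1788 to 6275). They also overlapped for primitive endoderm (5899 to 7733 against 4723.5 to 5954.5) and streak and mesoderm markers (225 to 408 against 400 to 541). There 11 neural markers summed to 4111 to 6157 against 2889 to 5369.8. The sum of 9 stem cell markers did not overlap, 137000 to 150430 in Dicer1-/- against 94443 to 126570 in TFC. The part of other cell types in the lower Cdh1, Cldn4, Cldn6 and Cldn7 levels of Dgcr8-/- was not tested, and in bulk RNA fewer cells of a type and less RNA per cell cannot be told apart.

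Over the 12 exonic libraries, each taken relative to its own wild-type mean, the 5 genes most like Zeb1 among 12376 were Mllt10 (Pearson r = 0.979), Ei24 (0.973), Pfn2 (0.968), Npepps (0.965) and Nfe2l2 (0.965). Those most like Cdh1 were Gpat4 (0.971), Acsl3 (0.968), Ppp2cb (0.963), Tmem185a (0.957) and Phldb2 (0.955). Pfn2, an actin-binding profilin, had 1377 reads in Dicer1-/- against 616 in TFC and 893 in Dgcr8-/- against 197 in V6.5, nearest to Zeb1 among these in the size of both differences. Phldb2 had 160 reads in Dgcr8-/- against 2811 in V6.5. The libraries share their table's scaling and the A against B and C split, and the correlations are descriptions.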

How the data were processed

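PolyA RNA-seq of 12 libraries in 4 groups of 3 was analysed. The authors deposited 4 tables, exonic and intronic for each knockout pair, whose values are a signal, the group mean of reads normalised per library. They used build mm10, TopHat2 2.0.12 and DESeq, per the submitters' processing notes, while the rule that assigns reads to exons or introns was not given in the sources used here. Each deposited mean is a whole-number combination of 3 steps, 1 per library, and solving for the steps gave whole reads for 99.4 to 100% of the genes of a column; 50 genes of the Dicer and 69 of the Dgcr8 exon table, Fn1 and Tdgf1 among them in the Dicer table, were left out. Between 66.4 and 71.6% of these read numbers were even, so precision is lower than totals imply.

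Tables were scaled separately and tested within a table with limma 3.58.1 in R 4.3.3, with a variance trend, on log2(value + 1) for genes with a mean of at least 10, Benjamini-Hochberg adjusted p under 0.05. The labels do not say that libraries came from separate cultures, so p-values measure only the spread between these libraries. The 10 genes and 14 lists were chosen with earlier results of these data known. Named beyond the 10 were list genes that passed (at most 4 a direction) and the 5 nearest patterns to Zeb1 and Cdh1. Some list genes are not reported here. Recovery and test were tested on simulated data. For the test, the simulated spread was taken from libraries B and C and left out the deviation that libraries A share. It therefore does not show how the test behaves with that deviation. Seeds and E-boxes were searched in GENCODE M21 3′ UTRs and RefSeq promoter windows.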

Additional observations from a re-analysis of the deposited data

How the results depend on the processing

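No paired analysis was possible because the deposited columns are group means and the recovered libraries carry no replicate number. Genes passing numbered 159, 41, 161 and 164 in Dicer exons, Dicer introns, Dgcr8 exons and Dgcr8 introns. A term for the library set gave 1624, 92, 2165 and 451, a fit of libraries B and C alone, chosen after seeing the data, 63, 0 (1162 unadjusted with limma), 2040 and 172, and voom weights 21, 63, 49 and 121. Library A was picked in exons as the one least like the others, so exonic fits that set it aside have a smaller spread by construction. In introns the letters were matched to those of exons, most weakly for B and C. Without a variance trend the numbers were 35, 1, 165 and 107. A pseudocount of 8 gave 81 and 304 in introns, and centring gave 36 in Dicer exons. Leaving out 1 library gave 0 to 475, 0 to 37, 0 to 470 and 26 to 176.

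Of the 10 genes, those passing in Dicer exons went from 0 to 4 with the library-set term (Cdh2, Cldn4, Vim and Zeb1) and 0 to 1 leaving out 1 library (Cldn4 without TFC library A). In Dgcr8 exons they went from 2 to 6 with that term and with B and C alone (Cdh1, Cldn4, Cldn6, Cldn7, Vim and Zeb1 in both), to 1 without a trend (Zeb1) and 1 with voom weights (Cldn6), and 0 to 4 leaving out 1 library, 0 without B or C of either group. In Dgcr8 introns 1 became 0 with a mean of at least 50, without a trend, with voom weights and with B and C alone, and 0 to 1 leaving out 1 library. No called difference changed sign. Of 470 differences of the 10 genes under alternatives 34 had another sign than in the main analysis, all uncalled, among them Zeb2 in both exon tables, Cldn6 in Dicer exons and Cdh2 in Dgcr8 exons. With 3 against 3 libraries an exact test cannot go under 0.1.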
